A study of Mus musculus with 9 samples.

Results

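The nuclear-encoded subunits of the mitochondrial respiratory chain were followed across 3 groups of mouse aorta. Members were chosen by gene symbol: the Nduf genes of complex I with Ndufa4, the 4 Sdh genes of complex II, the Uqcr genes and Cyc1 of complex III, and the Cox genes from Cox4i1 to Cox8. The muscle isoforms Cox6a2, Cox7a1 and Cox8b match the same symbol pattern but were left out by the rule, so 63 of the 66 matching genes were kept, out of 37668 genes listed. Of these 63, 61 reached 1 FPKM in at least 1 group and were analysed with 14227 genes in all. FPKM is a count of sequenced fragments divided by transcript length and by the size of the library. The other 2 are cytochrome oxidase isoforms known from testis: Cox8c was listed at 0 in every group, and Cox7b2 at 0.076 FPKM in floxed and 0 in both Cre groups.

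The study asked how aortic gene expression differs when AT1ar, the type 1a receptor for angiotensin II (gene Agtr1a), is deleted in the endothelium or in smooth muscle, and its title refers to Marfan syndrome. All 9 mice were males aged 90 days on a mixed 129T2SvEmsJ and C57Blk/6J background, and all carried the floxed AT1ar allele. There were 3 groups of 3 libraries. The floxed group had no Cre transgene. The Cdh5Cre group had Cre under the Cdh5 promoter, named for an endothelial cadherin, and the Sm22Cre group had Cre under that of SM22 (gene Tagln), a protein of smooth muscle. No fibrillin-1 allele is given in the labels.

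The deposited table gives 1 FPKM value for each gene in each group, so the spread between mice is unknown and no difference below has a replicate check, a standard error or a p-value. Sequencing depth is unknown as well. Wherever 3 values follow each other, they are those of floxed, Cdh5Cre and Sm22Cre, in that order. Agtr1a was listed at 1.75, 1.32 and 1.21 FPKM. Smooth muscle markers were abundant in every group (10 genes summing to between 7577 and 7943 FPKM). The major smooth muscle actin gene was among 7 genes removed because the authors' table gives them the status HIDATA. The summed FPKM of all genes was higher in Cdh5Cre, at 604460 against 495724 in floxed and 500015 in Sm22Cre. Globin genes made up 0.81% of the sum in floxed, 4.20% in Cdh5Cre and 1.80% in Sm22Cre, and genes of the mitochondrial chromosome 7.07%, 8.93% and 6.38%.

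The respiratory chain sits in the inner mitochondrial membrane. Complex I takes electrons from NADH and complex II from succinate, complex III passes them from ubiquinol to cytochrome c, and complex IV hands them to oxygen; complexes I, III and IV pump protons, which drive the ATP synthase. Most subunits are encoded in the nucleus and a few of the catalytic ones on the mitochondrial chromosome. Nuclear subunit genes are known targets of the transcription factors NRF1, GABP (an ETS factor), YY1 and ESRRA, and many of them are short genes with compact transcripts.

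Promoter sequence was looked at first, since binding sites of these factors are the features known to be shared by such genes. RefSeq (GRCm38.p6) gave a window of 250 bases before to 50 after the start for 49 of the 61 members. The NRF1 core GCGCATGC, searched on both strands, was found in 7 members (14.3%), against 5.83% of 9935 analysed genes with a window and 3.05% of all 27025 genes. It is part of the palindrome-like repeat of the full site, so matches on the 2 strands can overlap. The stretches below run 5′ to 3′ on the gene's own strand and end before the first annotated start. Capitals mark matches to the NRF1 core on either strand. In Cox6a1 and Ndufa11 matches on both strands overlap, while Ndufa6 has only the reverse match.
Cox6a1, chr5:115348982-115349140, minus strand: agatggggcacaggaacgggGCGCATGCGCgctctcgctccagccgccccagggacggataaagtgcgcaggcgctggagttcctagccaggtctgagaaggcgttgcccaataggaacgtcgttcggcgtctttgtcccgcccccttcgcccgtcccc
Ndufa11, chr17:56717682-56717761, plus strand: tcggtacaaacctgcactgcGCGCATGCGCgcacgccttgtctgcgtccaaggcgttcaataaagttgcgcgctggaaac
Ndufa6, chr15:82354323-82354394, minus strand: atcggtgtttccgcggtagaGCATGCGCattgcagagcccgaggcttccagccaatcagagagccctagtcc
Sdha, chr13:74350281-74350380, minus strand: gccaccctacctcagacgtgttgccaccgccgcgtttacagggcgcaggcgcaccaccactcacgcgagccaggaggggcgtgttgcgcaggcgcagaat
Sdha is shown because its value was lower in Cdh5Cre, against the direction of most members. No exact match to any of the 4 motifs searched lies in its stretch, which says only that those letters are not there. Near matches, such as its gcgcaggcgc beside the GCGCATGCGC of Cox6a1, were not searched for.

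The YY1 motif AAGATGGC was also found in 7 members (14.3%, against 5.18% of analysed genes and 3.19% of all genes), and all 7 encode complex I subunits. In each of them the match lay on the gene's own strand, between 22 and 45 bases after the start, and the atg inside it was an annotated start codon. Their sequences are shown to make that shared position visible, with the motif in capitals.
Ndufa3, chr7:3617387-3617410: ccaagaacAAGATGGCcgggagta
Ndufa9, chr6:126849100-126849123: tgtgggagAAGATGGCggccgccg
Ndufb8, chr19:44555393-44555412: agaaggtgAAGATGGCtgcc
Ndufc1, chr3:51408918-51408941: tgcggaacAAGATGGCgccgtccg
Ndufs4, chr13:114388045-114388067: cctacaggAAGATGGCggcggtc
Ndufs6, chr13:73328434-73328457: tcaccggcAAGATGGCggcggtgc
Ndufs7, chr10:80249465-80249488: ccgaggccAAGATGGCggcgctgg
The ETS motif CCGGAAG was found in 11 members (22.4%), close to the 19.6% of analysed genes, and the ESRRA motif TCAAGGTCA in 1, Sdhd. In all, 22 of the 49 members held at least 1 of the 4 motifs. Members with and without a motif covered overlapping ranges of differences between groups. In Cdh5Cre against floxed, the median log2 ratio was 0.36 for the 7 members with the NRF1 core and 0.44 for the 42 without it, and 0.51 for the 7 with the YY1 motif and 0.41 for the 42 without it. A match is a description of the letters and not evidence of binding.

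Levels of the subunits spanned a wide range. In floxed, the 35 complex I members summed to 2547 FPKM, complex II to 434.4, complex III to 1059 and complex IV to 2210. Cox6a1, a small subunit of cytochrome oxidase, had the highest value of any member in all groups, at 372.2, 507.4 and 370.5 FPKM. The regulatory subunit gene Cox4i1 followed at 365.7, 503.4 and 349.7 FPKM. At the low end, Cox6b2, a cytochrome oxidase isoform known from testis, stood at 3.62, 4.69 and 3.75 FPKM, and the Cox6c paralogue Cox6c2 at 9.96, 14.1 and 11.4 FPKM. Within complex I the highest value in floxed was that of the accessory subunit Ndufb9 (139.2, 180.6 and 138.3 FPKM) and the lowest that of Ndufs4, an accessory subunit near the NADH-oxidising module (18.7, 24.5 and 19.2 FPKM).

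**Figure D1:**
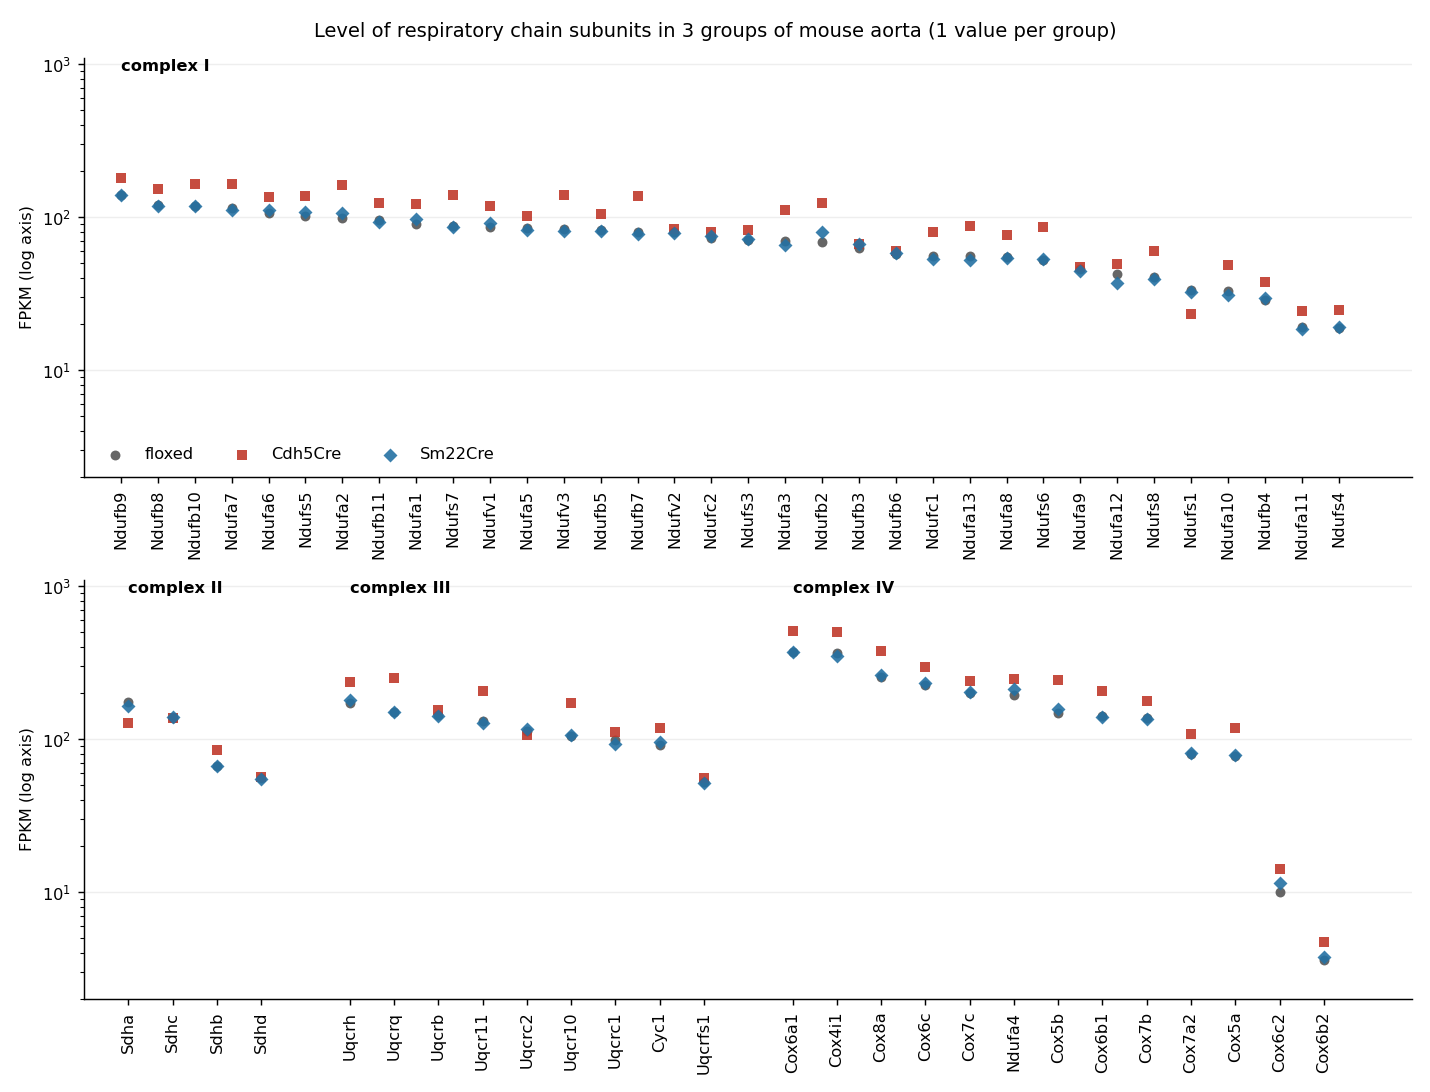
FPKM of 60 of the 61 subunits (log axis) in floxed (circles), Cdh5Cre (squares) and Sm22Cre (diamonds), 1 authors' value per group, ordered within each complex by the floxed value. The Cdh5Cre value is the highest of the 3 for most subunits (56 of the 61 analysed), and the floxed and Sm22Cre values nearly coincide.

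Deletion in the endothelium is the subject of the comparison of Cdh5Cre with floxed. Most subunits had higher values in Cdh5Cre: 58 of 61 were higher and 3 lower, with a median log2 ratio of 0.39 (middle 50% from 0.26 to 0.56) against 0.02 over all genes analysed. The log2 ratio is that of FPKM + 1, and the size rule counts genes that are higher by 25% or more, or lower by 20% or more, on this scale (a log2 ratio of 0.32 either way). By this rule 42 of 61 members were higher, where 23.7% of all genes analysed were, and 2 were lower, where 19.5% of all genes were. No member reached 2-fold, which 1.9% of all genes did in either direction. Of the 42 higher members, 37 had the status OK in the authors' table and 5 the status FAIL, and 32 had a listed locus shared with no other gene.

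The excess over all genes was found alongside a dependence on transcript length and base composition. Members are short: the median length of their longest protein-coding transcript was 891.5 bases (60 members with one), against 3120 over 12317 genes. Over those genes the log2 ratio of Cdh5Cre to floxed was lower for longer transcripts (Spearman's rho -0.58) and higher with more GC (0.53), given as a description across genes of the same libraries. Among transcripts under 1000 bases, the median log2 ratio was 0.45 for 34 members and 0.47 for all 656 genes, and 27 of the 34 members and 70.6% of the genes were higher by 25% or more. From 1000 to under 2000 bases it was 0.34 for 20 members and 0.28 for 2485 genes. From 2000 bases on it was 0.17 for 6 members and -0.11 for 9176 genes, and 3 of the 6 members and 12.1% of the genes were higher by 25% or more. With a fitted trend of length and GC removed, the members' median log2 ratio was -0.01, and 9 of 60 members were higher and 2 lower by the size rule, where 12.1% and 9.73% of the genes with a length were. Of the 60 members, 28 had a log2 ratio above 0 as deposited and below 0 with the trend removed. When the trend used the median length and GC of a gene's transcripts in place of the longest, the median was 0.18, with 17 members higher and 2 lower against 14.5% and 13.7% of the genes. Scaled to equal FPKM sums, 43 of the 61 members were higher than in floxed, with a median of 0.10 against -0.22 over all genes. The members' share of the FPKM sum was 1.26%, 1.38% and 1.26%. Directions given below for complexes and single subunits are those of the values as deposited. Their counts by the size rule stand beside 23.7% higher and 19.5% lower over all genes analysed. With the trend removed, the median log2 ratios in Cdh5Cre against floxed were 0.01 for complex I, -0.15 for complex II, -0.06 for complex III and 0.06 for complex IV. What the dependence on length comes from was not tested.

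**Figure D2:**
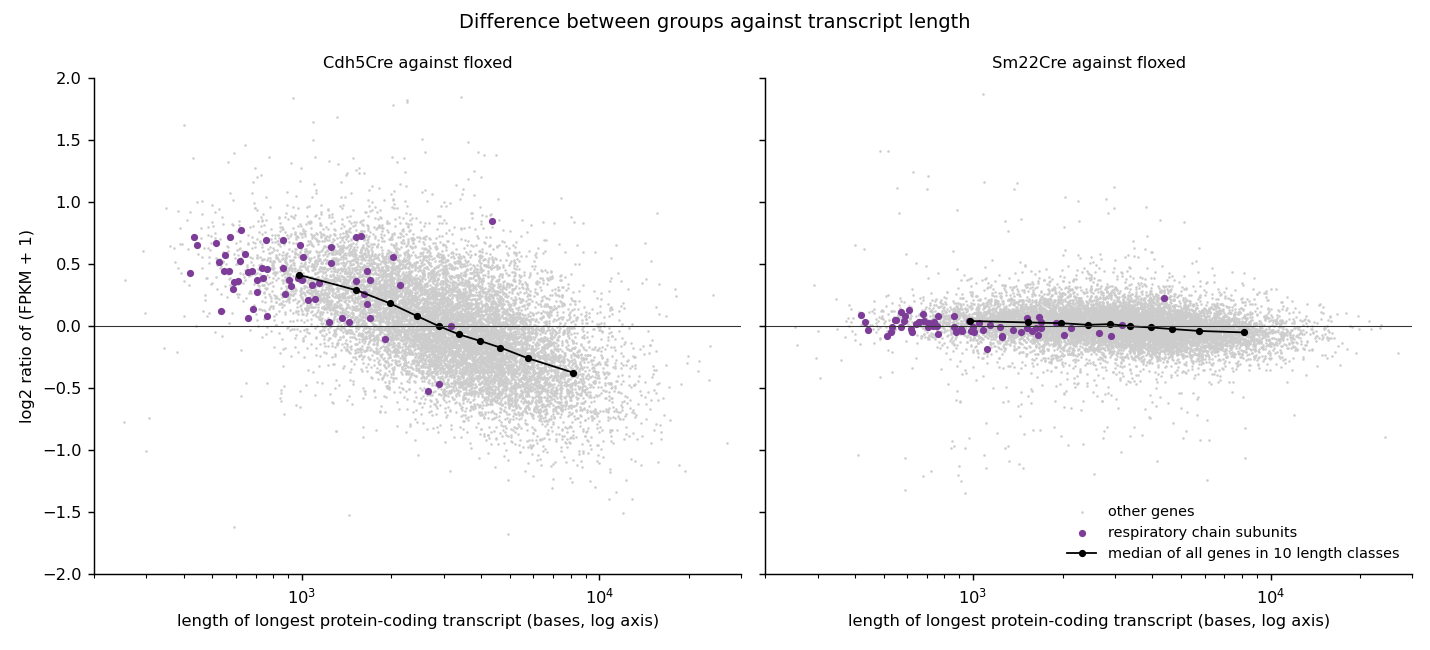
Log2 ratio of (FPKM + 1) against the length of the longest protein-coding transcript (log axis) for 60 subunits (purple) and other genes (grey), with the median of all genes in 10 length classes of equal size (black line). In Cdh5Cre against floxed the line descends from 0.41 in the shortest class, which holds 43 subunits, and the subunits lie around it; in Sm22Cre against floxed it is nearly flat.

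The matrix arm of complex I, which oxidises NADH, held both large and small differences. Of its 16 members 15 were higher in Cdh5Cre (median log2 ratio 0.37), 9 by 25% or more. Ndufv3, an accessory subunit of the NADH-binding module (mm9 chr17:31657060-31668266), stood at 83.2, 138.7 and 80.9 FPKM. This is 1.67-fold higher in Cdh5Cre than in floxed, and the floxed and Sm22Cre values lie close together. Ndufa2, another accessory subunit, stood at 98.3, 162.5 and 106.3 FPKM (1.65-fold in Cdh5Cre).

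Nuclear subunits of the catalytic core carry the flavin and the iron-sulfur clusters, and their differences were uneven in the values as deposited. Ndufs7 and Ndufs8, which hold clusters close to the ubiquinone site, were 1.59-fold and 1.48-fold higher in Cdh5Cre. Ndufv1, which binds NADH and the flavin, was 1.37-fold higher (86.1, 117.8 and 90.8 FPKM, status FAIL). Ndufs3 was 1.16-fold higher and Ndufv2 1.05-fold, both with the status FAIL. Ndufs1, the largest subunit and carrier of several iron-sulfur clusters, was the member with the lowest log2 ratio, -0.52: it stood at 33.5, 23.0 and 32.2 FPKM. Its value relative to Ndufv1 was 0.39, 0.20 and 0.36. Ndufs1 had the status FAIL and a listed locus shared with another gene. With the length and GC trend removed, the log2 ratios of Ndufs7, Ndufs8, Ndufv1 and Ndufv2 lay close together, at 0.091, 0.089, 0.086 and 0.095. Those of Ndufs3 and Ndufs1 were -0.22 and -0.41.

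In the membrane arm of complex I, which pumps protons, all 19 nuclear members were higher in Cdh5Cre. The proximal part, next to the matrix arm, had a median log2 ratio of 0.47 over 9 members, 8 of them higher by 25% or more. Ndufa3, an accessory subunit there, was 1.60-fold higher (69.2, 110.5 and 65.6 FPKM) and Ndufa13, also known as GRIM-19, 1.56-fold (55.7, 87.1 and 52.3 FPKM). The distal part had a median of 0.37 over 10 members, 8 of them higher by 25% or more. Ndufb2, an accessory subunit, had the highest log2 ratio of any member, 0.85, with 68.3, 123.8 and 80.1 FPKM. Its locus is shared, and its longest annotated transcript, 4371 bases, is the longest of the members. With the length and GC trend removed, a fit that uses this length, its log2 ratio was 1.15. Ndufb7 followed with 79.7, 137.3 and 77.3 FPKM (1.72-fold, mm9 chr8:86090570-86095525, status OK). At the other end of this arm, Ndufb6 and Ndufb3 were 1.05-fold and 1.06-fold higher.

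Complex II is also an enzyme of the tricarboxylic acid cycle. Its 4 genes summed to 434.4, 405.9 and 426.5 FPKM, while the sums of complexes I, III and IV were higher in Cdh5Cre. Sdha, the flavoprotein that oxidises succinate, stood at 175.3, 126.6 and 165.9 FPKM. Its Cdh5Cre value was the lowest of the 3, 1.38-fold below floxed. Sdhb, the iron-sulfur subunit (mm9 chr4:140517118-140535108), was 1.28-fold higher in Cdh5Cre, at 66.3, 84.7 and 66.8 FPKM. The membrane anchors Sdhc (137.5, 137.7 and 138.7 FPKM) and Sdhd (55.4, 56.8 and 55.3 FPKM) differed by less than 1.1-fold between any 2 groups. The ratio of Sdha to Sdhb was thus 2.64, 1.49 and 2.48. Sdha and Ndufs1 remained lower by 20% or more with the length and GC trend removed (log2 ratios -0.42 and -0.41) and under every scaling between groups that was tried. Sdha, Ndufs1 and Uqcrc2, the 3 members lower in Cdh5Cre, were all among the 19 members whose listed locus is shared with another gene, and the part of this sharing in their values was not tested.

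Complex III was uneven, with 8 of 9 members higher in Cdh5Cre and 5 by 25% or more. The small subunits Uqcr10, Uqcrq and Uqcr11 were 1.66-fold, 1.65-fold and 1.58-fold higher in Cdh5Cre. The small subunits Uqcrh and Uqcrb were 1.37-fold and 1.09-fold higher, Uqcrb with the status FAIL. Uqcrq, which binds cytochrome b, stood at 151.2, 249.4 and 149.7 FPKM (mm9 chr11:53241424-53244333). Cyc1, the cytochrome that passes electrons to cytochrome c, was 1.29-fold higher, at 91.2, 118.0 and 95.5 FPKM. The large core proteins and the Rieske iron-sulfur protein differed less as deposited: Uqcrc1 stood at 98.2, 111.4 and 93.7 FPKM, Uqcrc2 at 113.6, 106.0 and 116.0, and Uqcrfs1 at 52.7, 55.4 and 51.6. Uqcrc2 was the third member below floxed in Cdh5Cre, by 1.07-fold. With the length and GC trend removed, the log2 ratios of Uqcrq and Uqcr10 were 0.51 and 0.08. Those of the small subunits Uqcr11, Uqcrh and Uqcrb were then -0.055, -0.008 and -0.14. Uqcrc1, Uqcrc2 and Uqcrfs1 lay at -0.20, -0.08 and -0.13.

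Complex IV held no member that was lower. All 13 analysed members were higher in Cdh5Cre, 11 of them by 25% or more. Their log2 ratios had a median of 0.45 and a range from 0.28 (Cox7c) to 0.70 (Cox5b), against -0.52 to 0.85 in complex I. Cox5b, a zinc-binding subunit on the matrix side (mm9 chr1:36748332-36750230), stood at 149.0, 241.9 and 157.4 FPKM. Its partner Cox5a stood at 78.1, 117.6 and 79.0 FPKM with the status FAIL, so that the ratio of Cox5b to Cox5a was 1.91, 2.06 and 1.99. Cox4i1 and Cox6a1 were 1.38-fold and 1.36-fold higher. Ndufa4, first described with complex I and now placed in complex IV, was 1.29-fold higher, at 193.2, 249.0 and 212.3 FPKM.

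**Figure D3:**
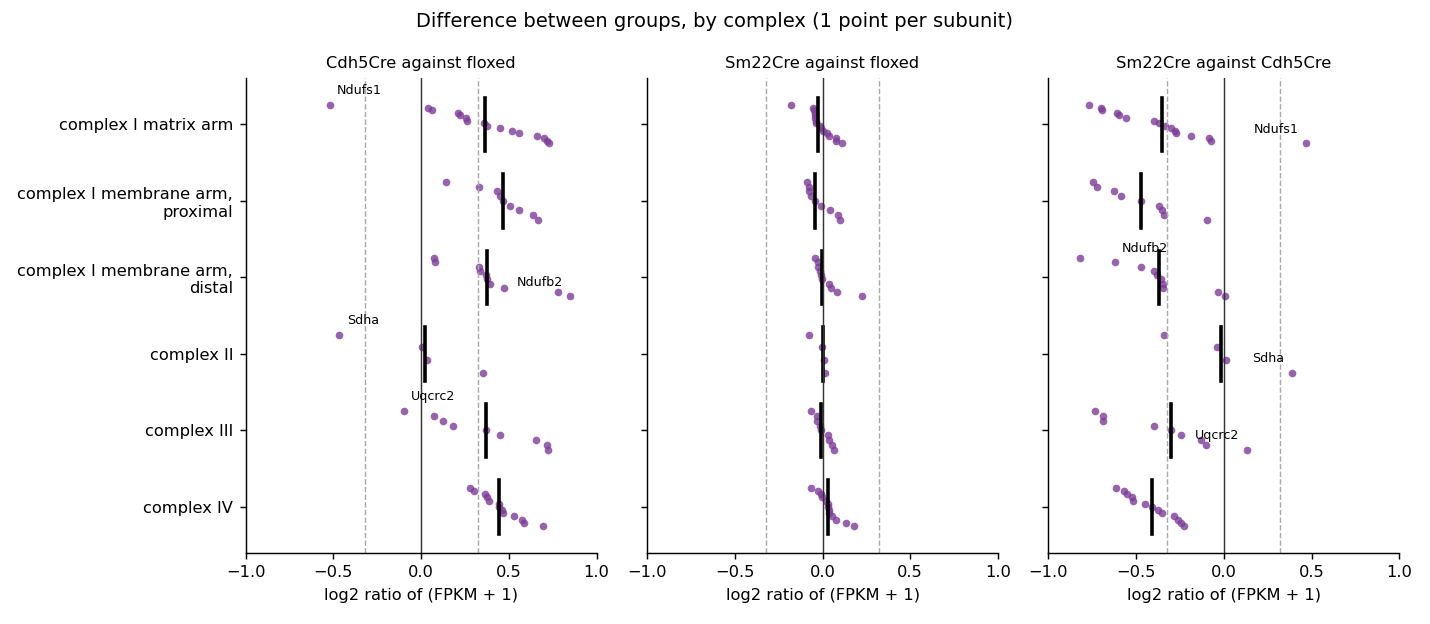
Log2 ratio of (FPKM + 1) for each subunit, by complex, in the 3 comparisons (points: subunits; black bars: medians; dashed lines: 25% higher and 20% lower). In Cdh5Cre against floxed, Ndufs1 and Sdha lie left of the lower dashed line and 42 subunits right of the upper one; in Sm22Cre against floxed every subunit lies between the lines.

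Sm22Cre against floxed concerned the deletion in smooth muscle, and the members' values lay close together. The median log2 ratio was -0.01 against 0.01 over all genes, with 28 members higher and 33 lower. No member was past the size rule in either direction, where 2.52% of all genes analysed were higher and 2.37% lower by that much, and 0.633% reached 2-fold. Closeness was general in this comparison, as 95.1% of all genes analysed lay within the size rule. The middle 50% of log2 ratios ran from -0.04 to 0.04 for the members and from -0.07 to 0.08 over all genes. Members also had higher levels, with a median of 86.1 FPKM in floxed against 10.1 over all genes. The highest ratio was again that of Ndufb2 (0.23 on the log2 scale), followed by Cox6c2 (0.18) and Ndufa4 (0.13), and the lowest that of Ndufa12, an accessory subunit of the matrix arm (-0.18), at 42.3, 49.4 and 37.2 FPKM. Sums by complex were alike in both groups: 2547 and 2560 FPKM for complex I, 434.4 and 426.5 for complex II, 1059 and 1064 for complex III, and 2210 and 2241 for complex IV.

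The direct comparison of the Cre groups uses the same 3 values per gene and is not independent of the other two. In Sm22Cre against Cdh5Cre, 56 members were lower and 5 higher, with a median log2 ratio of -0.37 against -0.01 over all genes. By the size rule, 39 members were lower, where 21.3% of all genes were, and 2 were higher, where 18.2% of all genes were. None reached 2-fold, which 1.64% of all genes did. The 2 higher members were Ndufs1 (log2 ratio 0.47) and Sdha (0.39), and the lowest ratios were those of Ndufb7 (-0.82) and Ndufv3 (-0.77).

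The muscle isoforms outside the rule had lower values in Sm22Cre, unlike the ubiquitous subunits. Several complex IV subunits have a second isoform used in striated muscle and, for some, brown fat. Cox6a2, the heart and skeletal muscle counterpart of Cox6a1, stood at 35.1, 55.0 and 14.7 FPKM. It was 2.40-fold lower in Sm22Cre than in floxed, while Cox6a1 differed by less than 1.1-fold. Its share of the summed FPKM of the pair was 8.63%, 9.79% and 3.80%. Cox7a1 made up 30.6%, 33.6% and 24.3% of its pair with Cox7a2, and Cox8b 20.7%, 21.6% and 17.2% of its pair with Cox8a. Among isoforms that are not tied to striated muscle, Cox4i2, an isoform induced at low oxygen, made up 1.73%, 2.23% and 1.94% of its pair with Cox4i1, and Ndufa4l2, also responsive to low oxygen, 5.87%, 8.49% and 5.11% of its pair with Ndufa4.

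**Figure D4:**
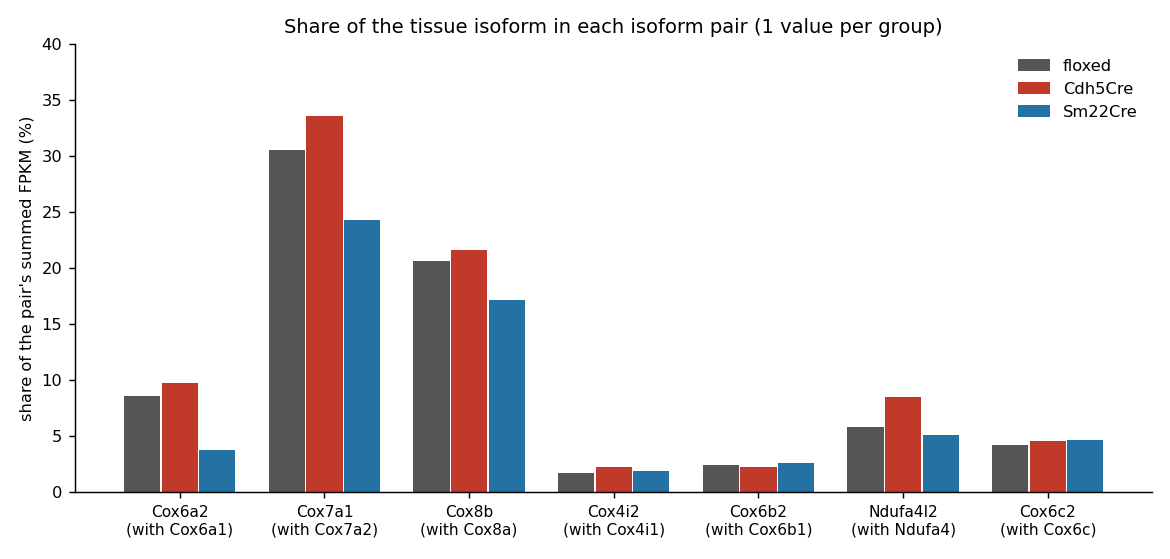
Share of each tissue isoform in the summed FPKM of its pair (bars from 0, percent, 1 value per group). Cox6a2, Cox7a1 and Cox8b have their lowest share in Sm22Cre, at 3.80%, 24.3% and 17.2%.

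Heart muscle markers were lower in Sm22Cre as well. All 17 heart markers were listed above 0 in every group and summed to 1093, 1671 and 492.8 FPKM. In Sm22Cre against floxed all 17 were lower, with a median log2 ratio of -1.13. Of these, 16 were lower by 20% or more, where 2.37% of all genes analysed were. The atrial myosin light chain gene Myl7 stood at 134.7, 202.3 and 53.2 FPKM and the cardiac troponin gene Tnni3 at 144.6, 240.7 and 60.2 (status FAIL). Brown fat markers, of which Cox7a1, Cox8b, Fabp3 and Cpt1b are also expressed in heart, summed to 321.4, 415.6 and 282.1 FPKM, with the uncoupling protein gene Ucp1 at 63.8, 67.4 and 62.0. Of these 10 markers 6 were higher in Cdh5Cre than in floxed, and 4 (Cpt1b, Elovl3, Otop1 and Prdm16) were lower. Their median log2 ratio was 0.17, or -0.09 with the length and GC trend removed. Cox7a1, Cox8b and Fabp3 were lower in Sm22Cre than in floxed, while Cpt1b stood at 18.05, 17.4 and 18.04 FPKM (status FAIL). The 5 red cell markers analysed summed to 4020, 25452 and 9028 FPKM, and 10 markers of smooth muscle had median log2 ratios of -0.05 in Cdh5Cre and -0.002 in Sm22Cre against floxed. Endothelial markers (12 genes) summed to 391.8, 592.2 and 437.7 FPKM, adventitial fibroblast markers (9 genes) to 1963, 3050 and 1945, and platelet markers (7 genes) to 48.5, 276.7 and 91.6. Macrophage markers (8 genes) summed to 285.6, 322.6 and 311.0 FPKM, but 4 were higher and 4 lower in Cdh5Cre than in floxed. Their median log2 ratio in that comparison was -0.07, or -0.24 with the length and GC trend removed. White fat markers (8 genes) summed to 658.3, 848.4 and 713.4 FPKM, and the 4 skeletal muscle markers analysed to 22.4, 41.7 and 13.9. The fast myosin gene Myh4 is not among those 4, and stood at 0.0027, 0 and 0 FPKM. In whole tissue, fewer cells of a type and less RNA per cell cannot be told apart, and the part of these cell types in the members' values was not tested.

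The partners of the nuclear subunits were compared in the same way. Of the 13 subunits encoded on the mitochondrial chromosome, mt-Co1, mt-Co3, mt-Atp6 and mt-Atp8 were listed at 0 with the status HIDATA and 9 were measured. All 9 were higher in Cdh5Cre than in floxed (median log2 ratio 0.54). Under quantile normalization the median was -0.05. That method gives each rank the same value in every group, so it can hide a shared difference of genes at the highest ranks. With the length and GC trend removed, the median was 0.48, against -0.01 for the nuclear subunits. The log2 ratio of mt-Nd4l was then -0.18. All 9 were lower in Sm22Cre than in floxed (median -0.14), none by 20% or more, where 2.37% of all genes analysed were. The complex IV gene mt-Co2 stood at 7506, 13166 and 7169 FPKM, and mt-Nd5 of complex I at 2041, 2258 and 1659.

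ATP synthase, which uses the proton gradient, resembled complexes I, III and IV. In Cdh5Cre 15 of 16 genes were higher, 10 by 25% or more, where 23.7% of all genes analysed were. The median log2 ratio was 0.45 (0.02 with the length and GC trend removed), and 8 of the 16 genes had the status FAIL. Its highest ratios were those of Atp5e (205.8, 390.6 and 207.2 FPKM) and Atp5j2 (96.7, 160.5 and 93.8 FPKM), both small subunits. The lowest were Atp5a1, the catalytic-domain alpha subunit (362.1, 347.4 and 341.1 FPKM), and Atp5f1 (90.4, 92.1 and 90.7 FPKM), both with the status FAIL.

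The tricarboxylic acid cycle, whose enzymes supply NADH and succinate, had a median of the opposite sign to that of the chain in the values as deposited. Of 16 genes 9 were lower in Cdh5Cre (median log2 ratio -0.08, or -0.12 with the trend removed). By the size rule 4 were lower and 1 was higher, where 19.5% and 23.7% of all genes analysed were. Dlat, of the pyruvate dehydrogenase complex, stood at 33.5, 23.2 and 34.5 FPKM, and Suclg2, a succinyl-CoA ligase subunit, at 28.4, 20.2 and 27.6. Mdh2, malate dehydrogenase, was the highest, at 91.1, 138.5 and 87.9 FPKM, followed by Idh3b at 69.7, 80.1 and 73.4. Of the 16 genes 7, including Mdh2, had the status FAIL in Cdh5Cre against floxed.

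Regulators of mitochondrial biogenesis had a median log2 ratio of -0.09 in Cdh5Cre against floxed, or 0.02 with the trend removed. Of 14 genes 9 were lower than in floxed. By the size rule 3 were lower and 2 higher, where 19.5% and 23.7% of all genes analysed were. Gabpa, the DNA-binding subunit of GABP, had the lowest ratio, with 20.9, 14.0 and 19.5 FPKM. The coactivator gene Ppargc1a stood at 2.13, 1.23 and 1.71 FPKM. Polrmt, the mitochondrial RNA polymerase, was the highest at 9.54, 15.5 and 11.4 FPKM, and Perm1, a muscle cofactor, stood at 3.26, 4.42 and 2.75. Nrf1 itself stood at 9.34, 9.81 and 9.35 FPKM. In Sm22Cre against floxed, no gene of the ATP synthase, tricarboxylic acid cycle or regulator lists was past the size rule. Few genes were in that comparison, with 2.52% of all genes analysed higher and 2.37% lower.

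**Figure D5:**
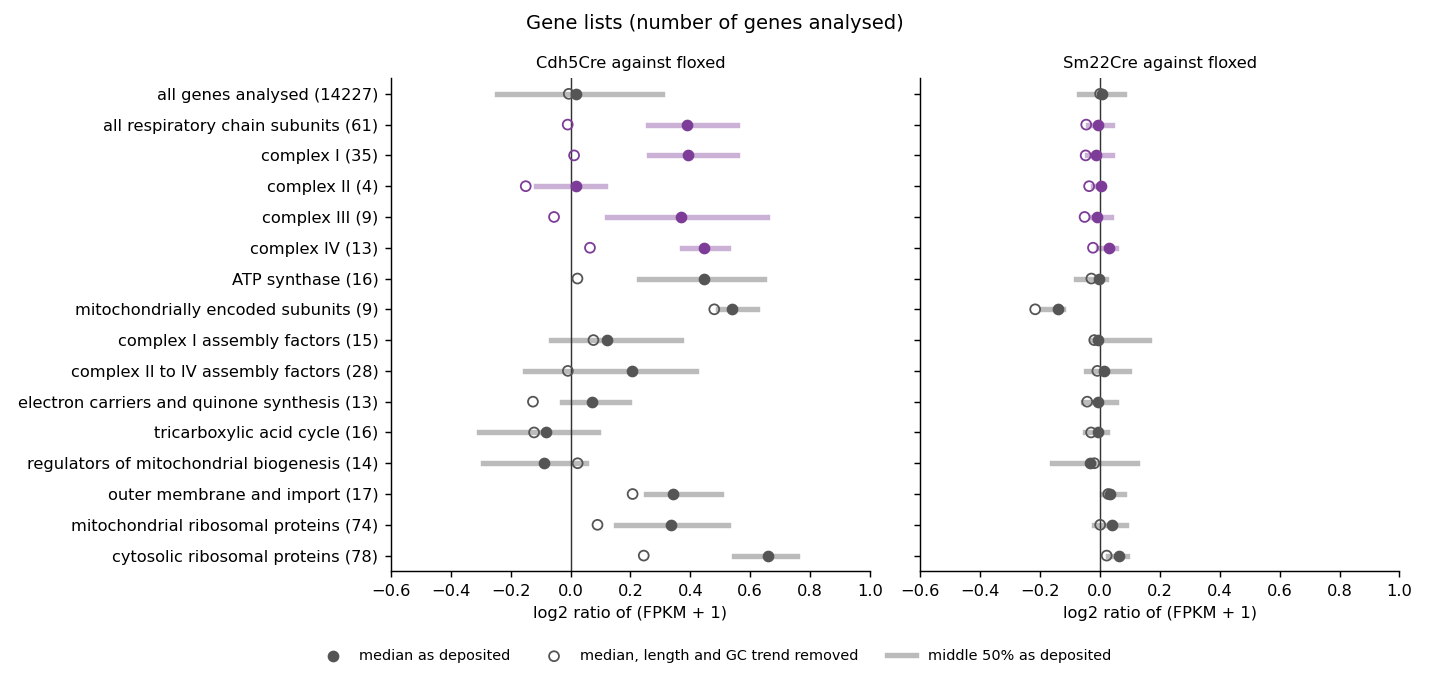
Median log2 ratio of (FPKM + 1) of each gene list (filled), its middle 50% (bar) and the median with the length and GC trend removed (open), with the number of genes analysed. Against floxed, the 61 subunits have a median of 0.39 in Cdh5Cre, or -0.01 with the trend removed, and of -0.01 in Sm22Cre.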

How the data were processed

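The deposited table gives, per the file headers, FPKM values of 2 groups and a status for each gene in each of 3 pairs of groups (113004 rows). Per the labels' protocols, poly-A RNA was made into stranded libraries and sequenced as 75-base read pairs. The submitters' processing notes name Cufflinks 1.3.0, TopHat2 2.0.8, SAMtools 0.1.7, Bowtie2 2.1.0 and build mm9; roles, annotation and use of strand are not given in the sources used here. The authors had combined the 3 libraries of a group, so no test could be made and the planned rule of size was used.

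Symbols came from a gene name table (32638 of 37668 IDs) and transcript lengths and GC from GENCODE M21. Ratios are of FPKM + 1. Genes under 1 FPKM in every group and 7 genes with the status HIDATA were left out. Values differed between pairs for 15 genes, 0 of them members. Listed starts were taken as counted from 0, since end minus start equalled the gene length for 12013 of 20004 unshared loci. The trend was a least squares fit on cubic terms of log2 length and of GC, tested on simulated data. Genes named are the 5 highest and 5 lowest ratios in each comparison, the highest and lowest levels of the complexes, catalytic and core subunits, isoform pairs and the 2 highest and 2 lowest of each list; motif examples and a few contrasts were chosen after values were seen. One member counted in the totals is not reported here singly. Members and lists were chosen with earlier results of these data known. Python 3 with pandas, numpy and scipy was used.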

Additional observations from a re-analysis of the deposited data

How the results depend on the processing

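No paired analysis was possible because the table holds 1 value per group and the groups share no replicate numbers; leaving out single libraries was not run for the same reason. In Cdh5Cre against floxed, the members' median log2 ratio (0.39) was 0.24 after quantile normalization, -0.0096 with the length and GC trend removed, and, under alternatives chosen after seeing the data, 0.18 with the trend of the median transcript, 0.10 at equal FPKM sums and 0.19 at equal sums without globin and mitochondrial genes. The count higher by 25% or more (42, where 23.7% of all genes were) was 22, 9, 17, 12 and 17 in that order, where 20.6%, 12.1%, 14.5%, 8.72% and 12.3% of all genes in the same setting were. The count lower by 20% or more (2) was 1 among members with status OK and 0 among members with an unshared locus, where 19.3% and 18.2% of all such genes were. In Sm22Cre against Cdh5Cre, the median (-0.37) was -0.19, -0.0081, -0.22, -0.10 and -0.18 in the same order of settings, and the count lower (39, where 21.3% of all genes were) was 20, 9, 15, 14 and 20, where 18.5%, 11.1%, 12.4%, 8.32% and 11.1% were; the count higher (2) was 0 among unshared loci, where 16.7% were. With the trend removed, 28 of 60 members went from above to below 0 in Cdh5Cre against floxed. These include 13 that were higher by less than 25% as deposited, and the 15 others were Ndufa11 -0.23, Sdhb -0.084, Uqcr11 -0.055, Ndufb9 -0.19, Ndufa6 -0.19, Ndufb4 -0.011, Ndufa8 -0.025, Ndufb11 -0.058, Cox4i1 -0.15, Cox7a2 -0.042, Cox8a -0.10, Ndufb10 -0.087, Cox6a1 -0.23, Ndufa7 -0.099 and Uqcrh -0.0082. The medians of the distal membrane arm (-0.035), complex II (-0.15) and complex III (-0.055) changed sign too. The 9 members higher by 25% or more with the trend removed were Ndufb2 1.15, Uqcrq 0.51, Ndufc1 0.40, Ndufs4 0.39, Ndufa10 0.38, Ndufv3 0.37, Cox5b 0.36, Ndufs6 0.33 and Ndufb8 0.33. With the median transcript's trend Ndufa11 was -0.076 and Cyc1 -0.093. The distal arm's median in Sm22Cre against Cdh5Cre was 0.00057 with the trend removed, and the mitochondrially encoded median in Cdh5Cre against floxed was -0.047 after quantile normalization. For genes this abundant, that normalization can hide a shared difference, since each rank gets the same value in every group. The cause of these changes was not tested. Pseudocounts of 0.1 and 5 FPKM, no filter, a filter at 5 FPKM and centring on the median of all genes left the members' medians within 0.1 in all 3 comparisons. With no depth or replicate values, no difference can be set against counting or biological error.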

Other observations

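Genes that build mitochondria but carry no electrons followed the chain in part (values in the order floxed, Cdh5Cre and Sm22Cre). Of 74 mitochondrial ribosomal proteins, 68 had higher values in Cdh5Cre than in floxed, 38 by 25% or more, and the median log2 ratio was 0.33 (0.09 with the length and GC trend removed). Mrpl52 was the highest, at 54.2, 102.3 and 58.6 FPKM, followed by Mrpl54 at 28.5, 49.4 and 29.4, and Mrpl1 was the lowest at 5.04, 3.79 and 4.60. Outer membrane and import genes had a median of 0.34 over 17 genes (0.21 with the trend removed), 10 of them higher by 25% or more. The small import chaperone Timm13 stood at 28.7, 50.4 and 28.7 FPKM and Tomm6 at 60.8, 103.9 and 64.7. The receptor Tomm70a was lower in Cdh5Cre at 17.96, 13.6 and 18.1, as was the channel Vdac2 at 111.5, 93.0 and 109.0 (status FAIL).

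Assembly factors were more mixed. Of 28 factors for complexes II to IV, 18 were higher in Cdh5Cre (median 0.21, or -0.01 with the trend removed), 9 by 25% or more. Uqcc2, needed for cytochrome b, had the highest ratio, at 39.95, 79.6 and 40.7 FPKM. The copper chaperone Cox17 followed at 57.2, 90.5 and 62.6 (status FAIL in Cdh5Cre against floxed). Lyrm7, which helps insert the Rieske protein, stood at 2.48, 1.66 and 1.91. Of 15 complex I factors 9 were higher (median 0.12, or 0.08 with the trend removed), with Ndufaf8 at 13.1, 19.6 and 15.0 FPKM and Foxred1 at 13.3, 10.1 and 12.2. Electron carriers and quinone synthesis genes had a median of 0.07 over 13 genes (-0.13 with the trend removed), from Etfdh at 25.9, 18.8 and 25.7 FPKM to Etfb at 81.6, 116.2 and 78.4. Etfdh had the status FAIL in Cdh5Cre against floxed. All 78 cytosolic ribosomal protein genes analysed were higher in Cdh5Cre, 77 by 25% or more, with a median of 0.66 (0.24 with the trend removed), a larger median than that of the respiratory chain. Over all genes analysed, 23.7% were higher by 25% or more in Cdh5Cre than in floxed. These lists are given as values without a test.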
